A study of Homo sapiens with 65 samples.

Results

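The GATA factors GATA1 to GATA6 and the FOG proteins ZFPM1 and ZFPM2, which bind GATA factors, were followed through human pluripotent stem cells that were differentiated to blood-forming endothelium or to endoderm. The 8 genes were matched by symbol to the Ensembl IDs of a table of raw fragment counts, and all 8 were found among its 58302 IDs. GATA factors are zinc finger proteins that bind GATA motifs in promoters and enhancers. GATA1, GATA2 and GATA3 are best known from blood, where GATA2 acts in stem and progenitor cells, GATA1 in red cells, platelet-forming cells, mast cells and eosinophils, and GATA3 in T cells; GATA2 also acts in endothelium. GATA4, GATA5 and GATA6 are best known from heart and endoderm. FOG proteins do not bind DNA themselves in the usual account: they bind GATA factors and recruit repressor complexes, ZFPM1 mainly with GATA1 in blood and ZFPM2 mainly with GATA4 in the heart and gonads.

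The cells were the H9 embryonic stem cell line with reporters in both SOX17 (mCHERRY) and RUNX1C (GFP), called WT, and a derivative of that line made by CRISPR, called KO, which is RUNX1 -/- through removal of the part that encodes the DNA-binding domain. In the mesoderm protocol, which is directed to intraembryonic blood-forming tissue, cells received BMP4 at 20 ng/ml, activin A at 7.5 ng/ml, VEGF, SCF and FGF2 in STAPEL medium. SB431542 and the GSK3 inhibitor CHIR at 3 µM were present from day 2 to day 4, and VEGF, SCF, FGF2 and IGF2 followed. Unsorted KO and WT mesoderm cells were sampled on days 0, 2 and 4, with 4 libraries in each of these 6 groups. On days 7 and 12 CD34+ cells were sorted by the SOX17 reporter and by CD43, a surface protein of blood cells. Day 7 gave 4 KO SOX17+ CD43-, 3 KO SOX17- CD43-, 4 WT SOX17+ CD43- and 4 WT SOX17- CD43- libraries. Day 12 gave 4 KO SOX17+ CD43-, 1 KO SOX17- CD43-, 3 WT SOX17- CD43+, 2 WT SOX17+ CD43+ and 4 WT SOX17+ CD43- libraries. In the endoderm protocol, unsorted WT cells received activin A (100 ng/ul as labelled), CHIR at 2 µM and PI-103, and then activin A with DMH-1. These cells were sampled on days 0, 2, 4 and 7, with 3 libraries each. Titles name the KO samples of days 2 and 4 as KO while their genotype field names no deletion, and the groups here follow the titles.

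Libraries held 10366048 to 19081031 counted fragments, and levels are given as CPM, fragment counts scaled to a common library size with TMM factors, which correct for library composition. Mitochondrial genes took 2.72 to 8.85% of the fragments, with 8.37 to 8.85% in the WT SOX17- CD43+ cells of day 12. The summed level of 14 definitive endoderm genes was 1.31e+04 to 1.44e+04 CPM in endoderm of day 4, against 102 to 275 CPM in WT mesoderm of day 4. The summed level of 12 endothelial genes was 1.03e+04 to 1.18e+04 CPM in WT SOX17+ CD43- cells of day 7, and it was 267 to 494 CPM in WT SOX17- CD43+ cells of day 12. SPN, which encodes CD43, averaged 421 ± 76.0 CPM in WT SOX17- CD43+ cells (SD, n = 3), against 2.42 ± 0.838 CPM in WT SOX17+ CD43- cells (SD, n = 4) of day 12. SOX17 averaged 189 ± 26.8 CPM in KO and 175 ± 31.4 CPM in WT SOX17+ cells of day 7 (SD, n = 4 each), against 58.2 ± 8.10 CPM in KO (n = 3) and 46 ± 16.5 CPM in WT (n = 4) SOX17- cells of that day. A gene is called changed at an adjusted p under 0.05 over all genes of its fit. Changes are log2 fold changes ± standard error, and means carry the SD between libraries. Separate cultures are not stated for the replicates, so p-values measure the spread between these libraries. In these bulk samples, fewer cells of a type and less RNA per cell cannot be told apart.

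The start regions of GATA2 and GATA1 are shown because these were the 2 GATA genes called higher in the SOX17- CD43+ cells of day 12 than in the SOX17+ CD43- cells. Each is the stretch just before the start of transcription in RefSeq (GRCh38.p14), read 5′ to 3′ on the strand of the gene, with CG steps in capitals. The GATA2 stretch, chr3:128493202-128493451 on the reverse strand, has 250 bases and 24 CG steps, and 23.7% of 35116 promoters have at least as many.
GATA2: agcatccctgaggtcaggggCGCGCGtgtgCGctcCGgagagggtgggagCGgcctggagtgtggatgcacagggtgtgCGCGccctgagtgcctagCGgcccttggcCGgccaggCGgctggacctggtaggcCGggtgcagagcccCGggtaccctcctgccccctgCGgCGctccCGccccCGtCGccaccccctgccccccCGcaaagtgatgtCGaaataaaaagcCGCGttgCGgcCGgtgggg
The GATA1 stretch, chrX:48786340-48786553 on the forward strand, is shown up to the first base of the gene in GENCODE 29, which lies before the RefSeq start, and has 214 bases and 4 CG steps, and its full window of 250 bases also has 4, which 70.7% of promoters reach.
GATA1: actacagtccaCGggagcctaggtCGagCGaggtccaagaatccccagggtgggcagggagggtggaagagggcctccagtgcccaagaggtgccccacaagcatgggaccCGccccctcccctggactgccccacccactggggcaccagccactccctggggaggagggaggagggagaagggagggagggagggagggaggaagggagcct
The hexamers AGATAA (9.17% of promoters), AGATAG (5.66%), TGATAA (6.66%) and TGATAG (5.05%), which hold the core of a GATA motif, were searched on both strands in 11 annotated start regions of the 5 members with an entry and in the same 250 bases of all promoters. None of the 11 held one, while 22.3% of all promoters held at least 1; this says only that these letters are not in these windows.

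The genes lie on 7 chromosomes of GRCh38 in the GENCODE 29 annotation. GATA1 lies on chrX:48786554-48794311 and GATA3 on chr10:8045378-8075203, both on the forward strand. GATA6 lies on chr18:22169443-22202528 and ZFPM1 on chr16:88453317-88537016, also on the forward strand. GATA2 lies on chr3:128479427-128493185 and GATA5 on chr20:62463497-62475970, both on the reverse strand. GATA4 and ZFPM2 both lie on chromosome 8. GATA2, GATA3, GATA6, ZFPM1 and ZFPM2 overlap annotated antisense transcripts, for example GATA2-AS1 over 3974 bases and GATA6-AS1 over 436 bases. Whether fragments were counted by strand is not stated, so reads of these genes and of their antisense partners cannot be told apart where they overlap. GATA1, GATA4 and GATA5 overlap no annotated gene.

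In the first 2 days of the mesoderm protocol, 5 of the 6 GATA genes, near absent on day 0, were clearly expressed on day 2 in both genotypes. GATA6, a factor of endoderm and heart, had 245, 443, 315 and 286 CPM in WT cells of day 2, against 0.201, 0.0756, 0.194 and 0.0737 CPM in WT cells of day 0. GATA3 had 92.3, 73.2, 79.4 and 110 CPM in WT cells of day 2, against 2.01, 1.59, 0.581 and 1.55 CPM in WT cells of day 0. For both genes every library of day 2 lay above every library of day 0. GATA2 had 59.8, 59.5, 46.1 and 55.4 CPM in WT cells of day 2, against 1.61, 0.908, 0.646 and 1.03 CPM in WT cells of day 0. GATA4, the heart factor, had 37.7, 108, 51.8 and 41.8 CPM in WT cells of day 2, and its mean on day 0 was 0.125 CPM. Library 2 was the highest for GATA4 and GATA6 on day 2, and the groups of day 2 and day 0 did not overlap for either gene. GATA5 rose less in CPM, with 15.1, 9.11, 10.8 and 20.2 CPM in WT cells of day 2, against 0.335, 0.378, 0.839 and 0.295 CPM in WT cells of day 0.

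Over WT cells of day 0, the cells of day 2 were higher by 11.10 ± 0.46 (log2) for GATA6 (adjusted p = 5.2e-14), 8.84 ± 0.64 for GATA4 (2.33e-10), 5.97 ± 0.29 for GATA3 (4.18e-13), 5.72 ± 0.56 for GATA2 (2.86e-08) and 4.87 ± 0.42 for GATA5 (3.88e-09). ZFPM1, whose product is the partner of GATA1 in blood, rose by 2.39 ± 0.16 (adjusted p = 9.06e-11) and was already at 3.47 ± 0.278 CPM in WT cells of day 0. ZFPM2 was not called (log2 fold change 1.44, adjusted p = 0.0885). GATA1 was not tested, with 1 fragment over the WT libraries of day 2 and 2 over those of day 0. Thus 6 of 7 tested members were called in WT cells, where 45.1% of all genes were called, and 6 of 7 in KO cells, where 43.3% were called. In KO cells the changes were 5.79 for GATA3, 5.59 for GATA2, 4.62 for GATA5 and 2.20 for ZFPM1 (log2). GATA4 rose by 8.56 in KO cells, and by 9.28 without KO library 2 of day 0. GATA6 was 8.94e+03-fold higher in KO cells of day 2 than in those of day 0 (95% counting interval 2.47e+03 to 7.38e+04, counting error only), where 2 fragments were counted in all.

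From day 2 to day 4 the mesoderm cells lost part of their GATA3, GATA4 and GATA6 transcripts and gained GATA5 and ZFPM2, in both genotypes. ZFPM2, whose product is the partner of GATA4 in the heart, had 51.7, 67.1, 15.4 and 64 CPM in WT cells of day 4, against 1.63, 1.74, 2.95 and 2.22 CPM in WT cells of day 2. GATA5 had 31.9, 35.5, 18.3 and 35.1 CPM in WT cells of day 4, against 15.1, 9.11, 10.8 and 20.2 CPM in WT cells of day 2. WT library 3 of day 4 was the lowest for both genes, and for GATA5 it fell within the range of day 2. GATA6 had 114, 183, 110 and 218 CPM in WT cells of day 4, all below the lowest library of day 2 (245 CPM). ZFPM2 rose by 4.52 ± 0.58 (adjusted p = 1.34e-06) and GATA5 by 1.12 ± 0.31 (0.00438), while GATA4 changed by -2.14 ± 0.39 (8.71e-05), GATA3 by -1.30 ± 0.22 (3.83e-05) and GATA6 by -1.05 ± 0.25 (0.00149). GATA2 and ZFPM1 were not called in WT cells (adjusted p = 0.174 and 0.104), though the WT groups of day 4 and day 2 did not overlap for either gene. GATA2 had 23.9 to 42.9 CPM on day 4 and 46.1 to 59.8 CPM on day 2, and was called by edgeR with these groups alone (0.0056). ZFPM1 had 13.3 to 16.5 CPM on day 4 and 16.6 to 19.6 CPM on day 2, and was called by DESeq2 (0.044) and limma (0.043). The called members were 5 of 7 in WT cells, where 51.4% of all genes were called, and the 5 of 7 in KO cells, where 50.5% were called, were these genes too. In KO cells ZFPM2 rose by 4.04 ± 0.57 (adjusted p = 4.32e-06) and GATA5 by 1.26 (0.0018), and GATA4, GATA6 and GATA3 changed by -1.51, -1.11 and -1.10.

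In the mesoderm protocol GATA1 passed 1 CPM on day 4, in 1 KO and 2 WT libraries. It had 0.058, 0.322, 4.09 and 0.0778 CPM in KO cells of day 4, and 0.0593, 1.45, 0.179 and 1.13 CPM in WT cells of day 4. The ratio of day 4 to day 2 was 70.3 in KO cells (95% counting interval 12.2 to 2.81e+03) and 32.9 in WT cells (5.6 to 1.33e+03), each against 1 fragment on day 2, and the gene did not pass the filter of this fit. With no filter it was called in KO (adjusted p = 0.00384) and WT cells (0.0256). It passed the filter and was called in 7 of 8 KO fits with 1 library left out (0.00284 to 0.022), the exception being that without KO library 3 of day 4, and in WT cells without library 1 (0.0194) or 3 (0.0244) of day 4. KO library 3 held most of the KO fragments. The same library had 88.5 CPM of GATA2, where the other KO libraries of day 4 had 15.3, 15.5 and 13.2 CPM. The change of GATA2 between day 4 and day 2 in KO cells was -0.59 and not called (adjusted p = 0.256) with that library, and it was called without it (adjusted p = 9.07e-06).

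**Figure D1:**
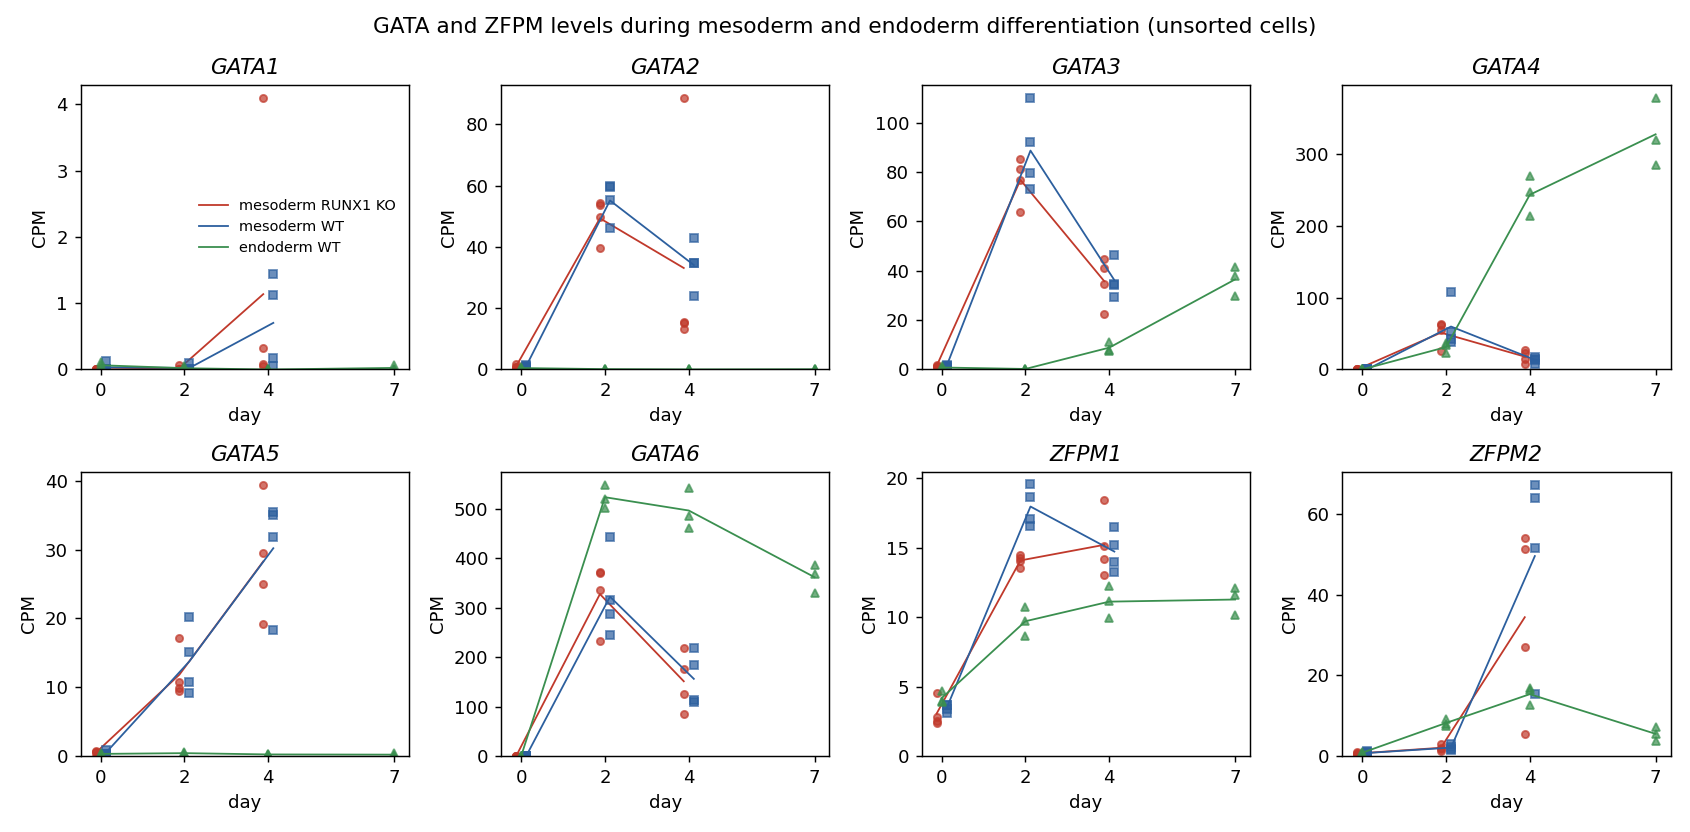
Levels of the 8 genes in unsorted cells by day, in CPM, with 1 point for each library and lines through group means, for KO and WT mesoderm cells and WT endoderm cells. GATA2, GATA3 and GATA5 rose in mesoderm cells by day 2 and lay under 1 CPM in endoderm up to day 2, except for GATA3 in 1 library of day 0 (1.42 CPM), while GATA4 averaged 327 CPM in endoderm of day 7.

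The endoderm protocol gave another set of GATA genes: GATA6 first, then GATA4, with GATA3 last. GATA6 had 520, 548 and 502 CPM on day 2, against 0.059, 0 and 0.149 CPM on day 0, and it kept 461, 542 and 486 CPM on day 4. GATA4 had 36.5, 33.5 and 23.4 CPM on day 2, 269, 214 and 247 CPM on day 4 and 320, 377 and 285 CPM on day 7. Each day lay above the day before in every library for GATA4. GATA3 had 0.116, 0.291 and 0.246 CPM on day 2, 11.1, 7.51 and 8.00 CPM on day 4 and 38.1, 29.9 and 41.5 CPM on day 7. ZFPM2 followed a course with a maximum, with 9.21, 7.55 and 7.94 CPM on day 2, 16.5, 17 and 12.6 CPM on day 4 and 5.42, 3.85 and 7.36 CPM on day 7. GATA2 and GATA5 stayed low: the highest endoderm library of any day had 0.746 CPM of GATA2 and 0.639 CPM of GATA5, and GATA1 had 0 to 3 fragments over the libraries of a day.

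Between day 2 and day 0 all 5 tested members were called, where 55.5% of all genes were. GATA6 was 8.13e+03-fold higher (95% counting interval 2.78e+03 to 3.94e+04, adjusted p = 1.42e-13) and GATA4 729-fold higher (201 to 6.02e+03, adjusted p = 1.69e-10), against 3 and 2 fragments on day 0. The fitted value of GATA6, which is no bound, was 12.82 (log2) and was 13.75 without library 3 of day 0. ZFPM2 rose by 3.23 ± 0.29 (adjusted p = 5.44e-07) and ZFPM1 by 1.22 ± 0.15 (1.15e-05). GATA3 fell by 1.87 ± 0.55 (0.00984), a call that was lost without library 2 of day 0 (0.0837) and by limma (0.222). Between day 4 and day 2 the called members were 3 of 5, against 42.4% of all genes: GATA3 rose by 5.33 ± 0.39 (adjusted p = 1.41e-07), GATA4 by 3.00 ± 0.16 (1.08e-08) and ZFPM2 by 0.93 ± 0.22 (0.00373). GATA6 changed by -0.04 ± 0.11 (adjusted p = 0.788). Between day 7 and day 4 the called members were again 3 of 5, against 21.3% of all genes. GATA3 rose by 2.02 ± 0.23 (adjusted p = 2.88e-05), while ZFPM2 changed by -1.50 ± 0.23 (0.000352) and GATA6 by -0.48 ± 0.11 (0.00702). GATA4 had a change of 0.41 ± 0.15 that was not called (adjusted p = 0.0652) and was called without library 3 of day 7 (0.0444).

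The difference between the protocols was tested as the change from day 0 in endoderm minus the change from day 0 in WT mesoderm. At day 2 it was called for 4 of 7 tested members, against 29.5% of all genes, and all 4 were lower in endoderm. The differences were -7.82 ± 0.66 for GATA3 (adjusted p = 6.18e-08), -7.58 ± 0.75 for GATA2 (4.77e-07), -4.47 ± 0.75 for GATA5 (0.000171) and -1.15 ± 0.20 for ZFPM1 (0.000203). The GATA3 difference was -7.13 without endoderm library 2 of day 0, and the GATA2 difference was -8.46 without endoderm library 2 of day 2. GATA6 and GATA4, which rose in both protocols, had no called difference at day 2 (adjusted p = 0.277 and 0.855). At day 4 it was called for 5 of 7, against 40.4% of all genes. The other 2 were GATA3, with a difference of -1.21 ± 0.50 (adjusted p = 0.0581), and GATA6, with 2.71 ± 1.16 (0.0679); both were called by DESeq2 (0.0279 and 0.018), by limma (3.54e-05 and 3.82e-05) and with no filter (0.0439 and 0.0386). GATA5 differed by -6.33 ± 0.81 (adjusted p = 2.64e-06) and ZFPM1 by -0.65 ± 0.20 (0.0115, and not called with no filter, 0.0748). GATA2 was called lower in endoderm (adjusted p = 1.09e-07), with 1 fragment in all endoderm libraries of day 4, so the size of its fitted difference, -8.92, is no bound; it was -10.79 without endoderm library 1 of day 4. GATA4 was called higher in endoderm (adjusted p = 0.013), with 2 fragments in the endoderm libraries of day 0, and this call was lost without WT mesoderm library 4 of day 0 (0.0604). ZFPM2 differed by -1.80 ± 0.70 with an adjusted p of 0.0469, which was lost, at adjusted p = 0.0555 to 0.159, without WT mesoderm library 1 or 3 of day 0, library 1, 2 or 4 of day 4, endoderm library 1 or 2 of day 0, or any endoderm library of day 4, and with these groups alone (0.0921).

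Per gene length GATA6 led in the unsorted cells of both protocols from day 2 on, with other genes behind it. On the RPKM scale of the authors, which divides by gene length and so allows levels of different genes to be set side by side, the 6 GATA genes summed to 139, 186 and 176 RPKM in endoderm of days 2, 4 and 7. GATA6 took 94.8, 68.6 and 51.9% of these sums, and GATA4 took 4.99, 29.9 and 41.6%. In mesoderm of day 4 the sums were 72.0 RPKM in KO cells and 74.0 RPKM in WT cells. GATA6 took 52.2% of the sum in KO cells and 53.1% in WT cells, GATA3 16% in both, GATA5 15.5% and 15.7%, and GATA2 9.82% and 10.4%. On day 0 the sums were 0.870 RPKM in KO mesoderm, 0.943 RPKM in WT mesoderm and 0.552 RPKM in endoderm, and GATA3 took the largest share, with 48.3, 45.6 and 42.5% in these groups.

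**Figure D2:**
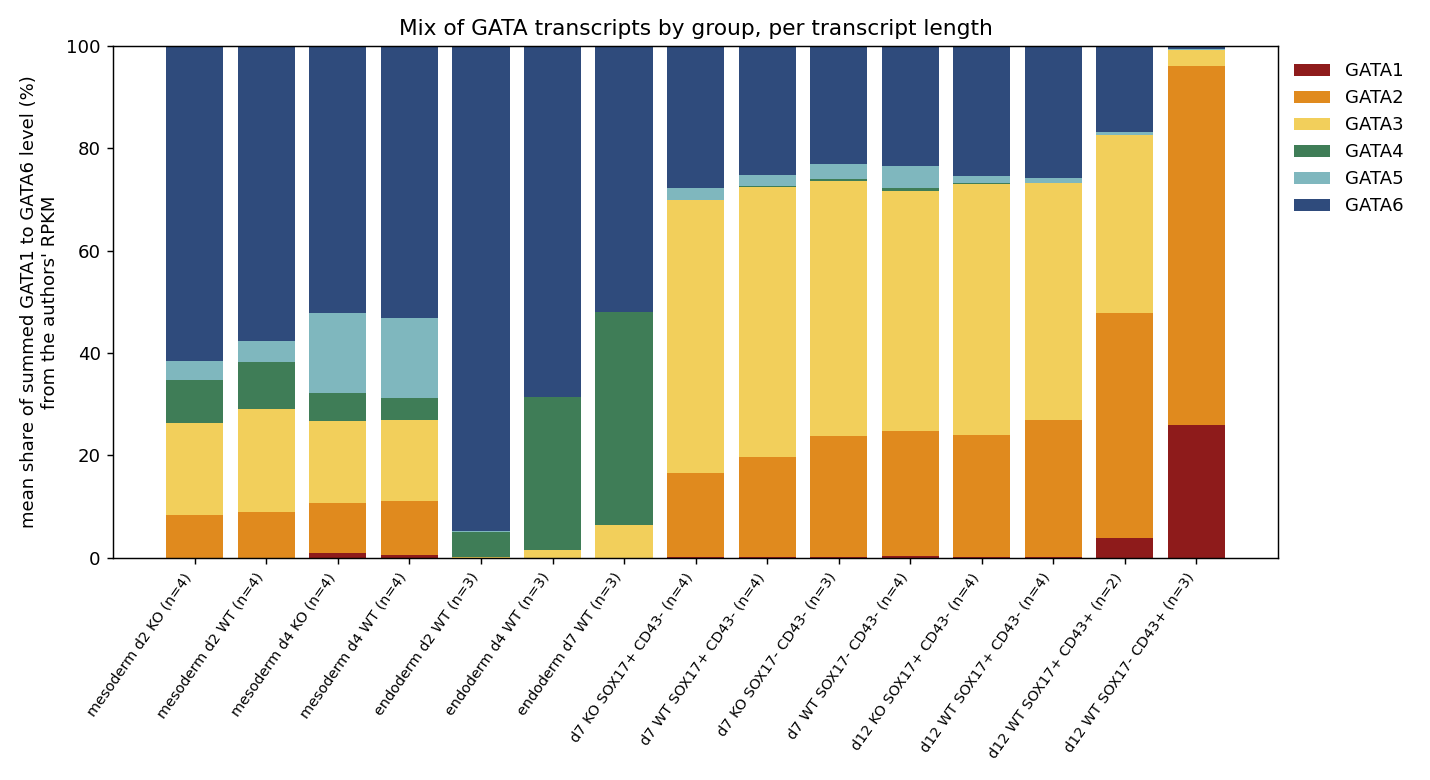
Share of each GATA gene in the summed RPKM of the 6 GATA genes, in percent, as the mean over the libraries of each group, with day 0 left out. GATA6 led in unsorted cells of both protocols from day 2 on, GATA3 led in the CD43- fractions with 47 to 53.3% on day 7, and GATA2 led in the SOX17- CD43+ cells with 70.2%.

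In the sorted endothelium GATA3 was the leading GATA gene, and GATA4 was near the limit of detection. On day 7 GATA3 had 89.8, 88.9, 98.7 and 93.3 CPM in WT SOX17+ CD43- cells, against 46.5, 34.6, 34.3 and 29.5 CPM in unsorted WT mesoderm of day 4. GATA6 had 52, 48, 58.4 and 57.3 CPM in these WT SOX17+ CD43- cells, all below the lowest WT library of mesoderm of day 4 (110 CPM). GATA4 had 0.181, 0.301, 0.103 and 0.117 CPM, against 15.2, 17.6, 8.01 and 13.2 CPM in that mesoderm. The groups did not overlap for any of the 3 genes. Over mesoderm of day 4, GATA3 rose by 1.37 ± 0.13 (adjusted p = 1.25e-05), while GATA5 changed by -3.34 ± 0.30 (7.81e-06), GATA6 by -1.51 ± 0.21 (0.00014), ZFPM1 by -0.83 ± 0.13 (0.000338) and GATA4 by -6.21 ± 0.37 (5.79e-07). GATA2 was higher by 0.49 ± 0.16 (adjusted p = 0.02), a call that was lost without SOX17+ library 4 of day 7 (0.0592), and ZFPM2 was not called (0.336). The called members were 6 of 7, against 62.8% of all genes. This contrast sets sorted against unsorted cells: the summed mesenchyme and smooth muscle level was 473 to 789 CPM in the sorted cells and 1118 to 6846 CPM in the mesoderm, the endothelial sum was 1.03e+04 to 1.18e+04 CPM in the sorted cells and 1484 to 2282 CPM in the mesoderm, and their part in these changes was not tested.

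SOX17 is known from both definitive endoderm and arterial endothelium, so the 2 kinds of cell were compared at day 7. The endoderm cells were unsorted and the SOX17+ CD43- cells were sorted, so protocol and sorting cannot be told apart here. Endoderm of day 7 had 320, 377 and 285 CPM of GATA4 and 367, 387 and 331 CPM of GATA6. Relative to WT SOX17+ CD43- cells, endoderm was higher by 10.83 ± 0.21 for GATA4 (adjusted p = 1.5e-12), 2.74 ± 0.11 for GATA6 (2.91e-10) and 0.47 ± 0.14 for ZFPM1 (0.0114). It was lower for GATA2 (-9.01 ± 0.27, adjusted p = 3.91e-11), ZFPM2 (-3.56 ± 0.21, 1.3e-08), GATA3 (-1.35 ± 0.12, 5.3e-07) and GATA5 (-3.61 ± 0.51, 3.93e-05; -4.40 without endoderm library 2). These are 7 of 7 tested members, where 71.6% of all genes were called. At so high a share the count says little about these genes as a group.

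Between SOX17+ and SOX17- CD43- cells of day 7 GATA4 was the 1 member called in the main fit, which had no block, in WT cells. In KO cells GATA2 had 34.9, 41, 31.6 and 46.6 CPM in the SOX17+ fraction and 54.9, 59.9 and 56.3 CPM in the SOX17- fraction. In WT cells GATA2 had 41.9, 48.9, 46.7 and 51.8 CPM in the SOX17+ fraction and 51.6, 61.8, 63.3 and 77.2 CPM in the SOX17- fraction. The fractions did not overlap in KO cells and met at 1 library each in WT cells. The differences of GATA2 were -0.57 ± 0.16 in KO cells (adjusted p = 0.0928) and -0.42 ± 0.14 in WT cells (0.178), and neither was called. Both were called by edgeR with the replicate number as a block (KO 0.00118, WT 0.0189), though that number may not pair the KO fractions correctly. In WT cells GATA4 had 0.181, 0.301, 0.103 and 0.117 CPM in the SOX17+ fraction and 0.927, 1.27, 1.06 and 1.54 CPM in the SOX17- fraction. Its difference of -2.74 ± 0.65 (adjusted p = 0.027) was not called without SOX17+ library 1 (0.0827), 3 (0.0922) or 4 (0.105), or without SOX17- library 2 (0.0603) or 4 (0.0768). The summed level of the 10 mesenchyme and smooth muscle genes was 473 to 789 CPM in the SOX17+ and 1.07e+03 to 1.73e+03 CPM in the SOX17- WT cells, with all 10 detected in both, and its part in the GATA4 difference was not tested. The KO fractions did not overlap for GATA4 either, at 0.121, 0.116, 0.289 and 0.166 CPM in the SOX17+ cells and 0.450, 0.931 and 0.714 CPM in the SOX17- cells (difference -2.01, adjusted p = 0.324). GATA3, GATA6, ZFPM1 and ZFPM2 had differences between -0.12 and 0.21 in both genotypes, none called.

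In the comparison of SOX17+ with SOX17- cells, the main edgeR fit called 0 of 8 members in KO cells. It called 0.67% of all genes there (154 genes, and 1832 at an unadjusted p under 0.05). DESeq2 called GATA2 alone (adjusted p = 0.0415). The edgeR test also called GATA2 with no filter (0.0334), with these groups alone (0.0318), and with the library series (0.0238) or the replicate number (0.00118) as a block. In WT cells the main fit called 1 of 8 members, against 1.6% of all genes. The difference of the SOX17 difference between KO and WT cells was called for 0 of 8 members and 0% of all genes by edgeR, with 240 genes at an unadjusted p under 0.05. For GATA2 it was -0.14, with a 95% interval of -0.58 to 0.29.

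Between day 7 and day 12, SOX17+ CD43- endothelium of both genotypes lost part of its GATA3. GATA3 had 67.6, 54.5, 59.7 and 66.6 CPM in KO cells of day 12, against 91.7, 90.2, 87.1 and 92.4 CPM in KO cells of day 7. In WT cells it had 74.0, 49.1, 55.3 and 80.9 CPM on day 12, against 89.8, 88.9, 98.7 and 93.3 CPM on day 7. Neither genotype had overlap between the days. GATA3 changed by -0.56 ± 0.17 in KO cells (adjusted p = 0.0325) and by -0.53 ± 0.17 in WT cells (0.0354). The WT call was lost without any 1 library of day 7 or library 2 or 3 of day 12 (0.0559 to 0.147), and the KO call without library 1, 2 or 4 of day 7 or 2, 3 or 4 of day 12 (0.059 to 0.122). GATA6 was called in KO cells (-0.56 ± 0.14, adjusted p = 0.00471) but not in WT cells (-0.32, 0.101), where it was called with the library series as a block (0.0477) and without library 4 of day 12 (0.047); the difference between these changes, -0.24, was not called (95% interval -0.63 to 0.15, adjusted p = 1). GATA5 was called in WT cells (-1.47 ± 0.44, adjusted p = 0.0193), with means of 1.06 ± 0.553 CPM on day 12 and 2.94 ± 1.15 CPM on day 7 (SD, n = 4 each), but not without library 2 or 4 of day 7 or 2 or 3 of day 12 (0.0587 to 0.0787). In KO cells GATA5 averaged 1.31 ± 0.613 CPM on day 12 and 3.01 ± 1.26 CPM on day 7 (SD, n = 4 each), and its change of -1.22 ± 0.42 was not called (adjusted p = 0.0576), while it was called by DESeq2 (0.0369), with no filter (0.0125), with the series block (0.0459), with these groups alone (0.0416), and without library 1 of day 12 (0.0309) or 3 of day 7 (0.0331). ZFPM1 was called in WT cells (-0.56 ± 0.15, 0.00854). The called members were 2 of 8 in KO cells, against 13.3% of all genes, and 3 of 8 in WT cells, against 17.8%. ZFPM2 stayed among the highest members in CPM, with 74.2, 79.5, 85.5 and 85.7 CPM in WT cells of day 12, and was not called (0.32, adjusted p = 0.143) except with the series block (0.0253).

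The SOX17- CD43+ blood cells of day 12 had another GATA set: relative to SOX17+ CD43- cells, GATA1 and GATA2 were higher and GATA3, GATA4, GATA5 and GATA6 were lower. GATA1 had 9.10, 15.2 and 15.6 CPM in WT SOX17- CD43+ cells and 2.72 and 1.40 CPM in WT SOX17+ CD43+ cells, against 0, 0.129, 0 and 0.0672 CPM in WT SOX17+ CD43- cells. GATA2 had 105, 125 and 91.1 CPM in SOX17- CD43+ cells and 63.5 and 66.4 CPM in SOX17+ CD43+ cells, against 42, 54.2, 50.7 and 54.3 CPM in SOX17+ CD43- cells. The 3 fractions did not overlap for either gene, and the SOX17+ CD43+ cells lay between the others. GATA6 had 0.611, 1.22 and 0.718 CPM in SOX17- CD43+ cells and 26.3 and 18.7 CPM in SOX17+ CD43+ cells, against 41.5, 35.7, 44.7 and 52.1 CPM in SOX17+ CD43- cells. GATA3 had 5.50, 2.96 and 1.98 CPM in SOX17- CD43+ cells and 50.1 and 28 CPM in SOX17+ CD43+ cells, against 74.0, 49.1, 55.3 and 80.9 CPM in SOX17+ CD43- cells. ZFPM2 had 15.3, 16.3 and 11.9 CPM in SOX17- CD43+ cells and 41 and 47.7 CPM in SOX17+ CD43+ cells, against 74.2, 79.5, 85.5 and 85.7 CPM in SOX17+ CD43- cells. These 3 genes ran the other way, and GATA3 alone overlapped, between SOX17+ CD43+ and SOX17+ CD43- cells.

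In SOX17- CD43+ relative to SOX17+ CD43- cells all 8 members were called, against 66.2% of all genes. GATA1 was 296-fold higher (95% counting interval 101 to 1.44e+03, adjusted p = 3.16e-13), with 3 fragments in the CD43- cells; the fitted value, which is no bound, was 7.99 (log2) and was 8.95 without CD43- library 2. GATA2 rose by 1.11 ± 0.15 (adjusted p = 4.42e-07) and ZFPM1 by 0.72 ± 0.16 (0.000239). GATA6 changed by -5.64 ± 0.22 (adjusted p = 5.68e-18), GATA3 by -4.20 ± 0.24 (1.68e-14), GATA5 by -3.06 ± 0.77 (0.00107) and ZFPM2 by -2.47 ± 0.18 (1.74e-12). GATA4, with 0 fragments in the 3 CD43+ libraries against 16 in the CD43- libraries, was at least 4.04-fold lower (against 3 fragments over the group; adjusted p = 0.0115, and 0.0457 without CD43- library 4). By limma on the deposited log2 values the calls of GATA4 (adjusted p = 0.226) and GATA5 (0.102) were lost, and with these groups alone GATA4 was not tested.

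The SOX17+ CD43+ cells, with 2 libraries, had 5 of 8 members called relative to SOX17+ CD43- cells, against 26.5% of all genes. GATA1 was 47-fold higher (95% counting interval 15.3 to 234, adjusted p = 5.96e-07); its fitted value of 5.31 (log2), again no bound, was 4.71 without CD43+ library 1 and 6.24 without CD43- library 2. GATA6 changed by -0.94 ± 0.18 (adjusted p = 0.000211) and ZFPM2 by -0.86 ± 0.19 (0.00105). ZFPM1 rose by 0.69 ± 0.18 (0.00449), a call that was lost without CD43+ library 1 (0.172), and GATA3 changed by -0.72 ± 0.22 (0.0169), a call that was lost without CD43+ library 2 (0.324) or CD43- library 4 (0.0546), or with these groups alone (0.0738). GATA2 had a difference of 0.38 ± 0.18 that was not called (0.115), though the fractions did not overlap, and it was called with the library series as a block (0.0141) and with these groups alone (0.0474). The SOX17- CD43+ cells in turn were higher than the SOX17+ CD43+ cells by 2.69 ± 0.43 for GATA1 (adjusted p = 1.47e-05) and 0.74 ± 0.19 for GATA2 (0.00302), and lower for GATA6 (-4.70 ± 0.23), GATA3 (-3.48 ± 0.26) and ZFPM2 (-1.60 ± 0.19). These were 5 of 8 members, against 37.5% of all genes. The summed level of the 12 endothelial genes was 267 to 494 CPM in SOX17- CD43+ cells, 6.42e+03 to 6.53e+03 CPM in SOX17+ CD43+ cells and 1.20e+04 to 1.48e+04 CPM in SOX17+ CD43- cells, each with all 12 genes detected, and its part in the result was not tested.

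Against the SOX17- CD43- cells of day 7, the SOX17- CD43+ cells of day 12 had 7 of 8 members called, against 62.9% of all genes. GATA1 rose by 5.24 ± 0.40 (adjusted p = 9.48e-12), and by 6.11 without day 7 library 4, which had 0.834 CPM where the other 3 libraries had 0.174, 0.241 and 0.141 CPM. GATA2 rose by 0.77 ± 0.15 (adjusted p = 9.82e-05). GATA6, GATA5, GATA3 and ZFPM2 changed by -5.96, -5.73, -4.66 and -2.26, and GATA4 was at least 20.0-fold lower (adjusted p = 2.79e-05). ZFPM1 had 8.98, 9.22 and 8.98 CPM in the day 12 cells and 8.46, 8.15, 9.92 and 8.72 CPM in the day 7 cells (0.05, adjusted p = 0.786). Per length, GATA2 took 70.2% and GATA1 25.9% of the summed GATA RPKM in SOX17- CD43+ cells, and GATA2 took 44%, GATA3 34.7%, GATA6 16.8% and GATA1 3.95% in SOX17+ CD43+ cells. In WT SOX17+ CD43- cells of day 12 GATA3 took 46.3%, GATA2 26.8% and GATA6 25.8%.

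**Figure D3:**
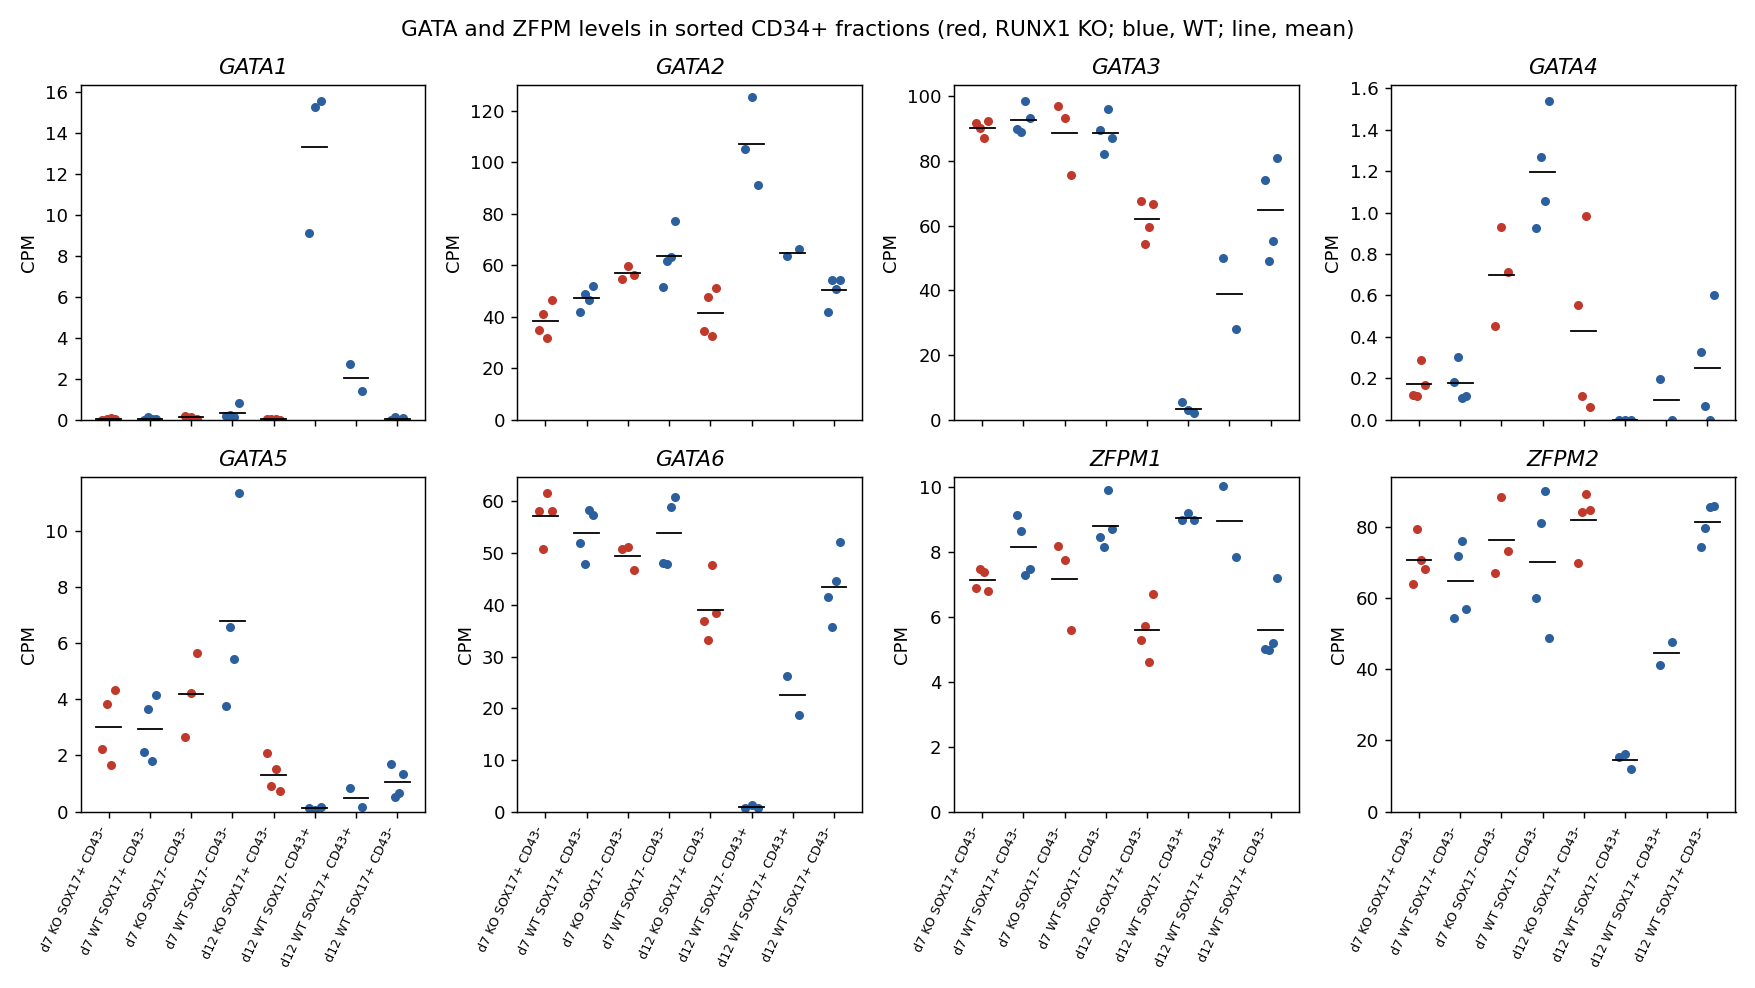
Levels of the 8 genes in the CD34+ fractions of days 7 and 12, in CPM, with 1 point for each library and a line at each group mean. GATA1 reached 9.10 to 15.6 CPM in SOX17- CD43+ cells, where GATA6 lay at 0.611 to 1.22 CPM, and KO and WT points of the same fraction overlapped for all 8 genes.

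No GATA or ZFPM gene was called between KO and WT cells in any of the 6 groups compared. RUNX1 itself, whose counts per gene do not show the deletion directly, averaged 35.3 ± 5.46 CPM in KO and 104 ± 29.3 CPM in WT SOX17+ CD43- cells of day 7 (-1.54 ± 0.24, adjusted p = 0.00514). On day 12 it averaged 14.5 ± 5.09 CPM in KO and 60.4 ± 22.8 CPM in WT SOX17+ CD43- cells (-2.05 ± 0.25, 6.27e-05; SD, n = 4 each). In SOX17- CD43- cells of day 7 it averaged 36.9 ± 2.12 CPM in KO (n = 3) and 97.1 ± 15.3 CPM in WT cells (n = 4) and was not called (adjusted p = 0.0617). In mesoderm of day 4 it averaged 31.2 ± 26.1 CPM in KO and 41.2 ± 17.4 CPM in WT cells and was not called (adjusted p = 1). GATA2 had 34.4, 47.7, 32.4 and 51.2 CPM in KO and 42, 54.2, 50.7 and 54.3 CPM in WT SOX17+ CD43- cells of day 12. Its differences were -0.27 (95% interval -0.57 to 0.02) on day 12 and -0.28 (-0.58 to 0.01) on day 7, and KO and WT libraries overlapped on both days. GATA6 differed by -0.15 (-0.42 to 0.13) on day 12 and 0.09 (-0.18 to 0.37) on day 7. The intervals of GATA3 ran from -0.41 to 0.30 on day 12 and from -0.38 to 0.33 on day 7, and those of ZFPM2 from -0.28 to 0.32 and from -0.17 to 0.43. In SOX17- CD43- cells of day 7 GATA1 differed by -1.45 (-2.90 to -0.00, adjusted p = 0.878), with 6 fragments over 3 KO and 22 over 4 WT libraries, and GATA5 by -0.68 (-1.52 to 0.16).

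In mesoderm of day 2 ZFPM1 had 14.5, 13.6, 14.1 and 14.2 CPM in KO and 17.1, 16.6, 18.6 and 19.6 CPM in WT cells. All KO libraries lay below all WT libraries, yet the difference of -0.37 (95% interval -0.68 to -0.06) was not called over all genes (adjusted p = 0.993). ZFPM2 on day 4 had 27, 54, 51.3 and 5.45 CPM in KO and 51.7, 67.1, 15.4 and 64 CPM in WT cells, with a difference of -0.53 (-1.52 to 0.45). The lowest KO library, 4, and the lowest WT library, 3, also had the lowest summed level of 10 mesenchyme and smooth muscle genes, at 1663 and 1118 CPM, where the others had 2993, 8190 and 4051 CPM in KO and 4109, 6846 and 5756 CPM in WT cells. The part of this in the ZFPM2 level was not tested. GATA2 on day 4 had 15.3, 15.5, 88.5 and 13.2 CPM in KO and 34.9, 34.7, 23.9 and 42.9 CPM in WT cells (-0.06, 95% interval -0.93 to 0.81). KO library 3, the highest, had a summed endothelial level of 2793 CPM, against 958 to 1467 CPM in the other KO and 1484 to 2282 CPM in the WT libraries. Its summed level of erythroid genes was 36.5 CPM, against 19.6 to 31.9 CPM in the other KO and WT libraries of day 4. Its summed level of megakaryocyte genes was 13.3 CPM, against 4.58 to 10.7 CPM. Its mesenchyme and smooth muscle sum was not the highest. The part of these sums in the GATA2 level was not tested. The spread of GATA2 was 36.9 CPM (SD) in KO and 7.79 CPM in WT cells.

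By edgeR 0 of 7 tested members were called between KO and WT mesoderm on days 0, 2 and 4, as were 0% of all genes on each day, with 146, 973 and 987 genes at an unadjusted p under 0.05. DESeq2 called 0 members on these days, 15 genes on day 2 and 2 on day 4. Between KO and WT sorted cells 0 of 8 members were called by edgeR or DESeq2. All genes were called at 0.0566% in SOX17+ cells of day 7 (13 genes, 860 at an unadjusted p under 0.05), 0.0087% in SOX17- cells of day 7 (2 genes, 1094) and 0.187% in SOX17+ cells of day 12 (43 genes, 707). For the difference of the KO effect between day 12 and day 7 edgeR called 0 of 8 members and 0.00435% of all genes (561 at an unadjusted p under 0.05), and DESeq2 also called 0 members. At the low background in these contrasts a count of 0 says little about the 8 genes as a group.

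**Figure D4:**
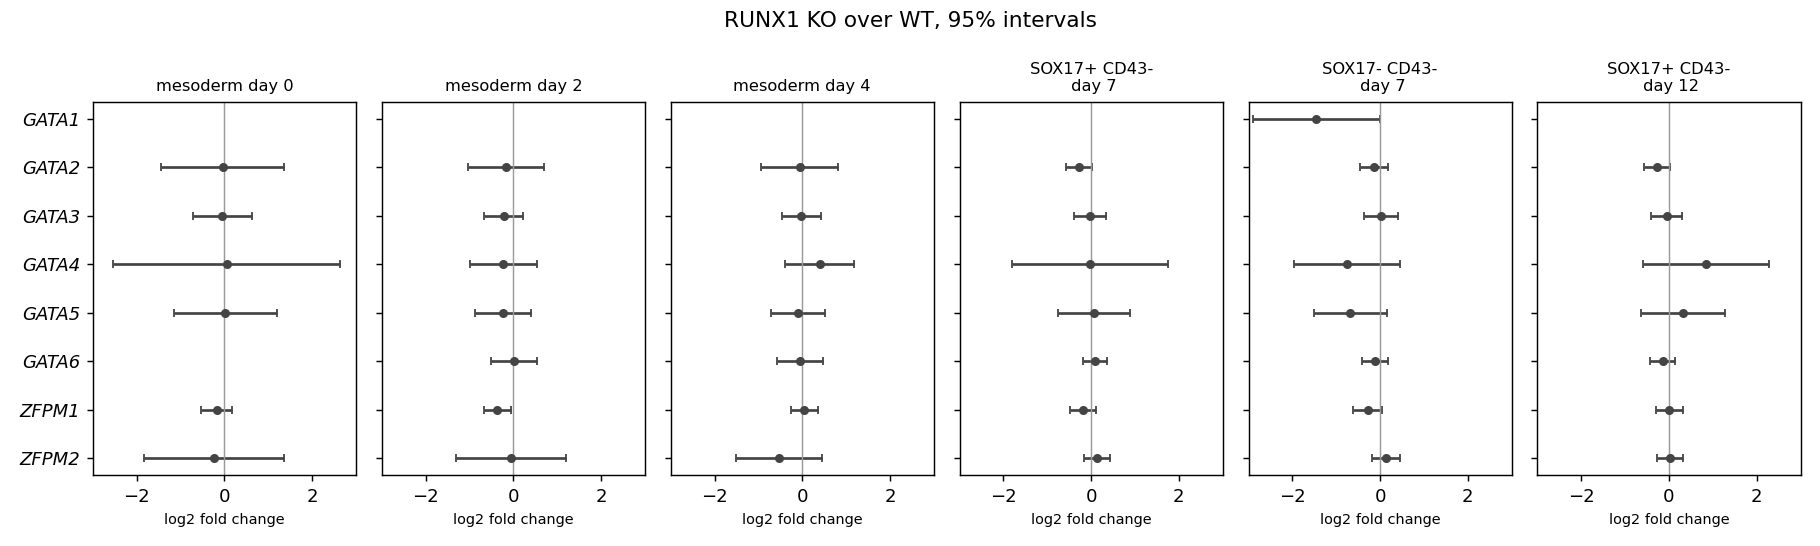
Log2 fold change of KO over WT with its 95% interval for each member in 6 comparisons, for members that passed the filter and had more than 3 fragments in both groups. Intervals of the highly expressed members are narrow in the sorted cells, such as -0.18 to 0.37 for GATA6 on day 7, and wide in mesoderm of day 4, such as -1.52 to 0.45 for ZFPM2.

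**Figure D5:**
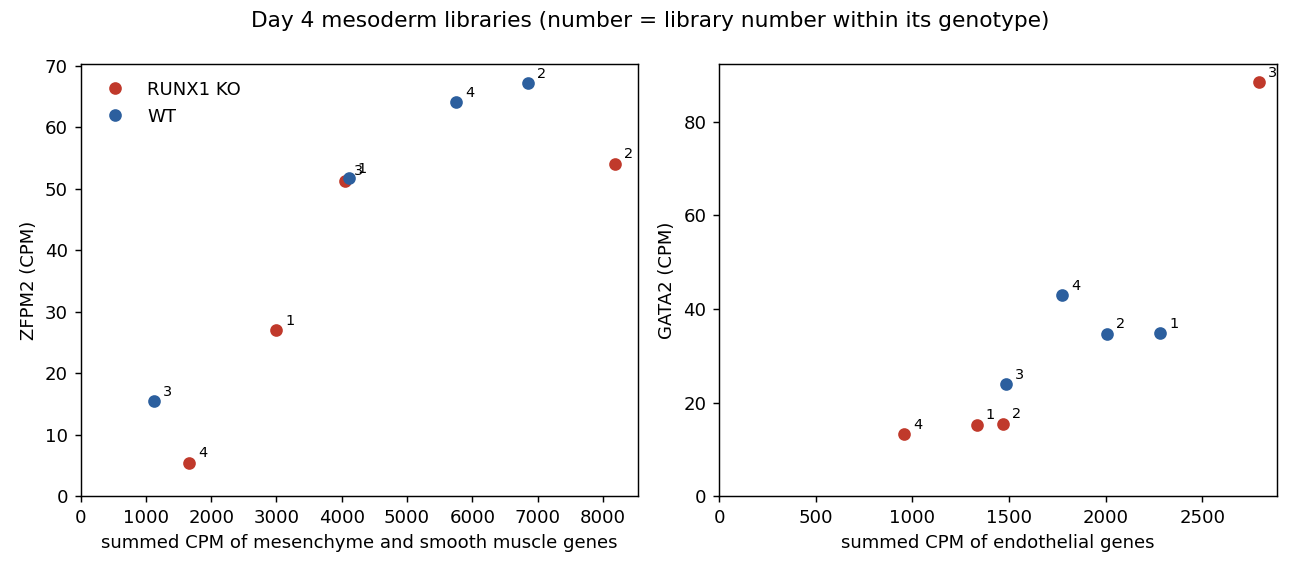
Level of ZFPM2 against the summed level of 10 mesenchyme and smooth muscle genes, and level of GATA2 against the summed level of 12 endothelial genes, both in CPM, in the KO and WT mesoderm libraries of day 4 (the number at each point is the library). KO library 3 has 88.5 CPM of GATA2 at an endothelial sum of 2793 CPM, and KO library 4 and WT library 3 have the lowest mesenchyme sums, at 1663 and 1118 CPM.

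Across the 18 groups with 2 or more libraries each member had its own order of levels. GATA4 was highest in endoderm of day 7 (327 ± 46.6 CPM) and day 4 (243 ± 27.6 CPM), which did not overlap, followed by mesoderm of day 2 with overlap between KO and WT cells. GATA6 was highest in endoderm of day 2 (523 ± 22.8 CPM) and day 4 (497 ± 41.3 CPM), which overlapped. GATA5 was highest in mesoderm of day 4, with 28.3 ± 8.48 CPM in KO and 30.2 ± 8.10 CPM in WT cells, which overlapped. GATA3 was highest in the CD43- fractions of day 7, with 88.6 to 92.7 CPM on average, and in WT mesoderm of day 2, with 88.7 ± 16.2 CPM, all of which overlapped their neighbours in the order. GATA2 was highest in SOX17- CD43+ cells (107 ± 17.3 CPM), apart from the next group, SOX17+ CD43+ cells (64.9 ± 2.04 CPM), which overlapped with the SOX17- CD43- cells of day 7. GATA1 likewise had its maximum in SOX17- CD43+ cells (13.3 ± 3.65 CPM), apart from all others. ZFPM1 spanned the narrowest range as a ratio of group means, from 3.06 CPM in KO mesoderm of day 0 to 18 CPM in WT mesoderm of day 2, and ZFPM2 was highest in SOX17+ CD43- cells of day 12, with 81.9 ± 8.37 CPM in KO and 81.2 ± 5.52 CPM in WT cells. The 1 library of KO SOX17- CD43- cells of day 12, which is outside this order, had 98.1 CPM of ZFPM2, above each of these group means, and was not above the highest group mean for any of the other 7 members.

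Pearson correlations over the 19 group means of log2 CPM describe which genes ran most alike; the points share libraries of few protocols and no test was made. Between members the highest value was 0.79 for GATA6 and ZFPM1, followed by 0.75 for GATA4 and GATA6, 0.72 for GATA4 and ZFPM1 and 0.69 for GATA2 and GATA3, and the lowest was -0.38 for GATA2 and GATA4. Among 15855 expressed genes the most alike to GATA1 were TFEC (0.957), CLEC10A (0.953) and ASGR2 (0.949), and to GATA2 they were FAM172A (0.978), RCSD1 (0.973) and GATA2-AS1 (0.971). GATA3 had GATA3-AS1 (0.951), ST3GAL1 (0.940) and PCAT14 (0.930), and GATA4 had DYNC1I1 (0.958), SLCO2A1 (0.955) and HIC2 (0.946). GATA5 had AC010533.1 (0.981), WDR63 (0.977) and HOXB13 (0.959), and GATA6 had AC091588.3 (0.994), GATA6-AS1 (0.982) and MEX3A (0.974). ZFPM1 had GTF2E2 (0.921), ZNF703 (0.917) and TMLHE (0.909), and ZFPM2 had PYROXD2 (0.985), MTERF2 (0.980) and C16orf58 (0.979). GATA6-AS1 and AC091588.3 overlap GATA6, and GATA2-AS1 and GATA3-AS1 overlap their namesakes, so shared reads were possible.

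Over the group means GATA2-AS1, GATA3-AS1 and GATA6-AS1 ran with their genes (Pearson correlations 0.971, 0.951 and 0.982). ZFPM2-AS1, with 325 fragments over all libraries, did so less (0.807). The comparisons given below hold 2 departures, and others were not listed. From day 0 to day 2 of WT mesoderm GATA2-AS1 rose by 6.0 ± 0.60 (adjusted p = 3.17e-08), GATA3-AS1 was at least 168-fold higher and GATA6-AS1 at least 594-fold higher (against 3 fragments over the group at 0). From day 2 to day 4 GATA6 fell in WT mesoderm, while GATA6-AS1 averaged 45.1 ± 17.9 CPM on day 4 and 32.5 ± 14.3 CPM on day 2 and was not called (0.47 ± 0.48, adjusted p = 0.44). In SOX17- CD43+ relative to SOX17+ CD43- cells of day 12 GATA2 rose, while GATA2-AS1 averaged 3.2 ± 0.644 CPM in the CD43+ and 5.67 ± 1.97 CPM in the CD43- cells and was called lower (-0.80 ± 0.25, adjusted p = 0.00721). GATA3-AS1 and GATA6-AS1 were called lower there along with GATA3 and GATA6 (GATA6-AS1 -6.11 ± 0.32, adjusted p = 3.26e-15). In endoderm GATA6-AS1 averaged 257, 188 and 102 CPM on days 2, 4 and 7.

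GATA factors bind DNA beside other factors of blood and endothelium, and 11 of these formed a list. From day 2 to day 4 of WT mesoderm 8 of 11 rose and 1 fell, where 25.9% of all genes rose and 25.5% fell, with a median of 1.96 against -0.01 for all genes. TAL1, the partner of GATA1 and GATA2 in blood and endothelium, averaged 63.2 ± 13.3 CPM on day 4 and 0.325 ± 0.127 CPM on day 2 (7.61 ± 0.50, adjusted p = 8.25e-11), and the ETS factors ERG and FLI1 rose by 6.0 ± 0.51 and 5.41 ± 0.45. SPI1, the myeloid factor PU.1, was the 1 that fell (-2.42 ± 0.57, adjusted p = 0.00117). GATA2, at 34.1 ± 7.79 CPM on day 4 and 55.2 ± 6.37 CPM on day 2, was high on day 2, where TAL1 was near 0. The change to day 4 in endoderm minus that in mesoderm was called lower for 9 of 11 and higher for 0, where 19.9% of all genes were lower and 20.5% higher, with a median of -2.58 against -0.02 for all genes. In SOX17- CD43+ relative to SOX17+ CD43- cells of day 12, 4 of 11 rose and 6 fell, where 32.3% of all genes rose and 33.9% fell, with a median of -0.72 against -0.02 for all genes. SPI1 averaged 179 ± 20.0 CPM in the CD43+ and 2.07 ± 0.917 CPM in the CD43- cells (6.46 ± 0.28, adjusted p = 5.05e-17). CBFA2T3, a corepressor that joins TAL1 and GATA1, rose by 3.87 ± 0.28 and RUNX1 by 3.27 ± 0.26, while ERG changed by -2.99 ± 0.21 and TAL1 was not called at 171 ± 20.4 CPM in the CD43+ and 163 ± 16.3 CPM in the CD43- cells (0.09, adjusted p = 0.59). Between KO and WT SOX17+ CD43- cells of day 12, 0 rose and 2 fell, where 0.00435% of all genes rose and 0.183% fell. The 2 were SPI1 and RUNX1. RUNX1 is the gene disrupted in the KO line, so its fall says nothing about the list.

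FOG proteins recruit the NuRD and CtBP repressor complexes, of which 15 subunits formed a list. From day 0 to day 2 of WT mesoderm 7 of 15 rose and 4 fell, where 22.2% of all genes rose and 22.9% fell, with a median of 0.20 against -0.00 for all genes. The largest changes were those of the remodelling ATPase CHD3, with 152 ± 17.5 CPM on day 2 and 23 ± 7.2 CPM on day 0 (2.74 ± 0.22, adjusted p = 1.35e-09), of the scaffold MTA2 (1.14 ± 0.09) and of the corepressor CTBP2 (-0.66 ± 0.10). From day 2 to day 4, 4 rose and 4 fell, where 25.9% of all genes rose and 25.5% fell, with a median of -0.08 against -0.01. In SOX17- CD43+ relative to SOX17+ CD43- cells of day 12, 8 rose and 3 fell, where 32.3% of all genes rose and 33.9% fell, with a median of 0.29 against -0.02. The called share, 11 of 15, was near the 66.2% of all genes. The changes were led by the histone-binding RBBP7 (0.97 ± 0.10) and RBBP4 (0.63 ± 0.10) and, downward, by MTA3 (-0.58 ± 0.09). Between KO and WT SOX17+ CD43- cells of day 12, 0 of 15 were called, against 0.187% of all genes.

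Genes of the lineages in which GATA1 acts differed in the SOX17- CD43+ cells of day 12 from the SOX17+ CD43- cells, a comparison in which 32.3% of all genes rose and 33.9% fell. Of the megakaryocyte genes 8 of 8 rose, with a median of 4.78 against -0.02 for all genes, among them the platelet chemokine PF4 (8.54 ± 0.75), the factor NFE2 (6.36 ± 0.45) and the integrin ITGA2B (5.18 ± 0.30). Of the mast cell, basophil and eosinophil genes 8 of 10 tested rose and 0 fell. Their median was 7.58, or 7.73 with genes at 0 to 3 fragments in a group set to their bound or counting ratio. CLC, the Charcot-Leyden crystal protein of eosinophils and basophils, averaged 99.2 ± 53.9 CPM in the CD43+ cells and 0 in the CD43- cells (at least 2.20e+03-fold higher), and PRG2, the eosinophil major basic protein, averaged 257 ± 139 CPM in the CD43+ and 0.249 ± 0.112 CPM in the CD43- cells (9.95 ± 0.39, adjusted p = 9.73e-18). Of 12 erythroid genes only 3 passed the filter: KLF1, an erythroid target of GATA1, averaged 2.39 ± 0.244 CPM in the CD43+ cells and 0 in the CD43- cells (at least 52.8-fold higher), HBE1, the embryonic globin, averaged 5.11 ± 6.90 CPM in the CD43+ and 0.0298 ± 0.0346 CPM in the CD43- cells, and EPOR, the erythropoietin receptor, was called lower (-2.48 ± 0.23). The globins HBZ, HBA1 and HBA2 averaged 0.0399, 0.0592 and 0.0193 CPM in the CD43+ cells, and AHSP had no fragment there. All 10 tested myeloid genes rose as well, with a median of 7.11, led by MPO, the neutrophil peroxidase, at 3.49e+03 ± 435 CPM in the CD43+ and 0.734 ± 0.470 CPM in the CD43- cells (12.24 ± 0.33, adjusted p = 1.28e-20).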

How the data were processed

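RNA was prepared as TruSeq total RNA libraries per the labels. The submitters' processing notes name cutadapt 1.18, featureCounts, R 3.2.2 and the GRCh38 build, with no roles, and give no strand setting for the counting. The main table holds raw fragment counts per gene, as deposited by the authors, for 58302 Ensembl IDs, of which 58039 matched GENCODE 29. A second table holds log2 values, which the authors made as log2 of TMM-scaled RPKM plus 1; these were turned back to RPKM for the GATA shares. Counts were tested with edgeR 4.0.16 in R 4.3.3. The filter, filterByExpr, required both its minimum of 10 counts, applied as CPM in enough libraries, and 15 counts in all libraries together. TMM factors and the quasi-likelihood test were used, with 95% intervals from its t quantiles. Benjamini-Hochberg adjustment was made over all genes of a fit. The 6 fits held 24 mesoderm, 12 endoderm, 21 WT mesoderm and endoderm, 28 sorted, 8 and 7 libraries. The single KO SOX17- CD43- library of day 12 entered no test. Groups at 0 to 3 fragments were given as a bound against 3 fragments or as a ratio with an exact 95% counting interval, which cover counting error only. Between-gene patterns used log2 CPM with a prior of 2 counts per library on average, scaled to library size. They were taken over genes with a group mean of at least 3 on that scale. Libraries of a group differed by more than sampling noise (chi-square per gene 4.46 to 87.2 over 85 pairs), so each counted as 1 replicate in the tests. This does not show that they came from separate cultures. The edgeR fit was tested on simulated data.

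The 8 genes were looked up in every comparison, but not all of their values are named here. RUNX1, SOX17 and SPN are given as checks. From each gene list up to 3 called genes with the largest change were named, and for each member the 3 genes most alike. A few further genes of those lists (EPOR, ERG, TAL1, the globins, AHSP) were named after their values were seen. The members and lists were chosen with earlier results of these data known. Replicate numbers paired the libraries, by correlations of their deviations all over 0.1, in mesoderm of day 0 (KO and WT, 0.228 to 0.771), in SOX17+ CD43- cells of day 7 (KO and WT, 0.191 to 0.408) and in WT SOX17+ CD43- cells of days 12 and 7 (0.133 to 0.221). Alternatives were no filter, the compared groups alone, a block for the library series or the replicate number, median-of-ratios size factors, each library left out (64 fits), DESeq2 1.42.0, limma 3.58.1 on the log2 values, and levels without TMM factors.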

Additional observations from a re-analysis of the deposited data

Results flagged for a closer look

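In 3 of the 66 pairs of a member and a group of 4 libraries with a mean of at least 1 CPM, 1 library lay far from the others by Dixon's test at the 95% level, where chance gives about 1 in 20. KO library 3 of mesoderm day 4 had 4.09 CPM of GATA1 and 88.5 CPM of GATA2, and library 4 of the WT SOX17+ CD43- cells of day 12 had 7.19 CPM of ZFPM1.

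The change from day 0 differed between endoderm and WT mesoderm by a test of the difference itself. At day 2 the endoderm minus mesoderm differences (log2) were -7.58 for GATA2, -7.82 for GATA3, -4.47 for GATA5 and -1.15 for ZFPM1. At day 4 they were -8.92 for GATA2, 5.54 for GATA4, -6.33 for GATA5, -0.65 for ZFPM1 and -1.80 for ZFPM2. The sizes for GATA2 and GATA4 at day 4 rest on 1 to 2 fragments in an endoderm group and are no bounds.

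The single KO SOX17- CD43- library of day 12, which entered no comparison, had 0.499 CPM of GATA1, 2.92 CPM of GATA4, 3.07 CPM of GATA5, 59.9 CPM of GATA6 and 98.1 CPM of ZFPM2. The highest KO SOX17+ CD43- library of day 12 had 0.0615, 0.986, 2.09, 47.8 and 89.1 CPM of these genes. With 1 library no test was possible.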

How the results depend on the processing

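No called change of a member reversed direction in the other fits that tested it. Changes that were not called were not checked for this. Of 532 called changes of members compared under other settings 525 kept their call, of 673 with 1 library left out 636 did, and 139 of 144 mean levels moved by less than the SD without TMM factors. The counts of called members moved by over 1.5 times in these comparisons. For SOX17+ over SOX17- CD43- WT cells of day 7 (1 member) the count was 3 with no filter (GATA1 and GATA5 added), 2 with the library series as a block (GATA5 added) and 0 to 1 with 1 library left out. For the same comparison in KO cells (0 members) it was 1, GATA2, with no filter (adjusted p = 0.0334), by DESeq2 (0.0415), with the series block (0.0238) and with these groups alone (0.0318). For day 12 over day 7 in SOX17+ CD43- cells it was 5 in WT cells with the series block (GATA6 and ZFPM2 added to 3) and 1 to 4 with 1 library left out, and in KO cells (2 members) 1 to 3 with 1 library left out. With 1 library left out the count also moved, by less, for the difference between the protocols at day 4 (5 members, 4 to 7) and day 2 (4, 4 to 5), mesoderm of day 4 over day 2 in KO (5, always 6) and WT cells (5, 5 to 6), endoderm of day 2 over day 0 (5, 4 to 5) and of day 7 over day 4 (3, 3 to 4), SOX17+ cells of day 7 over mesoderm of day 4 (6, 5 to 6) and SOX17+ CD43+ over SOX17+ CD43- cells (5, 4 to 5). Members not called as reported were called as follows: ZFPM2 in mesoderm of day 2 over day 0 by DESeq2 (KO 0.0144, WT 0.0335) and with these groups alone (KO 0.0029, WT 0.0284), ZFPM1 in WT mesoderm of day 4 over day 2 by DESeq2 (0.044) and limma (0.043), GATA2 there with these groups alone (0.0056) and in KO cells by limma (0.0222), ZFPM2 between the protocols at day 2 by DESeq2 (0.0221), with no filter (0.0476) and with these groups alone (0.0282), GATA6 there by limma (0.0472), and GATA5 in SOX17- CD43+ over SOX17+ CD43+ cells by DESeq2 (0.044). With no filter GATA2 in endoderm of day 2 over day 0 (0.0362), GATA4 in endoderm of day 7 over day 4 (0.00361), GATA1 between the protocols at day 4 (0.0271) and GATA1 in SOX17+ cells of day 7 over mesoderm of day 4 (0.00458) were added.

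With the replicate number as a block, 2 members were called between SOX17+ and SOX17- WT cells of day 7 (GATA2 added, 0.0189). In KO cells 1 was called (GATA2, 0.00118). Here 4 and 3 libraries correlated best with their own number, a hint from the data. The WT fractions of day 7 that share a replicate number also have neighbouring library numbers in their titles. In KO cells the library number of SOX17- library 3 is next to that of SOX17+ library 4, so the replicate block may not pair these fractions correctly. The replicate block also gave GATA2 in SOX17+ CD43+ over SOX17+ CD43- cells (0.0097). In that comparison not all libraries that share a replicate number have neighbouring library numbers, so the block may not pair them correctly. The block also gave GATA4 in endoderm of day 7 over day 4 (0.0491) and GATA6 between the protocols at day 4 (0.0382), and lost ZFPM2 between the protocols at day 4 (0.0575). In the 3 comparisons that the numbers pair it changed no member's call.

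Counts of all called genes moved by over 1.5 times as follows. KO over WT mesoderm (0 genes) had 15 by DESeq2 and 143 with these groups alone on day 2, and 2 by DESeq2, 1 by limma and up to 3 with 1 library left out (KO library 1; 2 without KO library 3, 1 without WT library 2) on day 4. SOX17+ over SOX17- cells of day 7 had 367 genes in WT cells, with 651 (no filter), 559 (replicate block), 616 (series block), 208 (groups alone) and 166 to 407 (1 library left out, with 166 and 219 without SOX17+ library 4 or 1 and 235 without SOX17- library 4). In KO cells they had 154, with 446, 311, 376 and 612 under these settings, 333 by DESeq2, 234 by limma and 46 to 160 with 1 library left out (46 to 94 without any 1 library but SOX17+ library 2). KO over WT had 13 genes in SOX17+ cells of day 7 (no filter 34, DESeq2 30, series block 22, 1 library left out 2 to 11, and 2 to 7 without any but WT library 1), 2 in SOX17- cells (24, 13, limma 8, either block 7, and 1 without KO library 1 or 2 or WT library 3 or 4) and 43 in SOX17+ cells of day 12 (96, 77, limma 12, groups alone 10, 1 library left out 28 to 52, with 28 without KO library 1). SOX17+ CD43+ over SOX17+ CD43- cells had 6086 genes, and 3857 without SOX17+ CD43+ library 2. SOX17- CD43+ over SOX17+ CD43+ cells had 8619 genes, and 5683 with these groups alone. The difference of the KO effect between days had 1 gene (no filter 11, DESeq2 8, limma 0, replicate block 6, series block 3, 6 without WT library 1 of day 12, 3 without KO library 4 of day 7). The cause was not tested. Genes under about 3 fragments a group, among them GATA1 and GATA4 in several groups, are limited by depth.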

Other observations

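Markers of other cell types gave further measured context for the mesoderm and endothelium. From day 0 to day 2 of WT mesoderm 10 of 15 tested lateral and cardiac mesoderm genes rose and 2 fell, where 22.2% of all genes rose and 22.9% fell, with a median of 3.40 against -0.00 for all genes, and HAND1, a factor of lateral mesoderm and heart, averaged 648 ± 130 CPM on day 2 (SD, n = 4). From day 2 to day 4, 9 of 11 tested endothelial genes rose, with a median of 3.42, and 7 of 10 mesenchyme and smooth muscle genes rose while 3 fell, with a median of 3.25, against -0.01 for all genes, of which 25.9% rose and 25.5% fell.

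In SOX17+ relative to SOX17- CD43- WT cells of day 7, 3 of 8 megakaryocyte genes were called lower, against 0.67% of all genes, namely PF4 (-3.20 ± 0.58), NFE2 (-2.30 ± 0.49) and GFI1B (-1.78 ± 0.37). KLF1 was called lower as well (-3.46 ± 0.73, adjusted p = 0.0153), as was the mesoderm factor HAND1 (-1.05 ± 0.25). GATA1 had 0 to 0.120 CPM in the SOX17+ and 0.141 to 0.834 CPM in the SOX17- libraries of these cells, a separation near the limit of counting. Its difference of -2.45 was not called (adjusted p = 0.101).

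KO library 3 of mesoderm day 4, chosen after its GATA1 and GATA2 levels were seen, was ranked over 17351 genes by its level over the highest other KO library. GATA1 ranked 2 and GATA2 ranked 20, and GFI1 came first with 10.9 CPM, against at most 0.754 CPM in the other KO libraries and 1.01 to 3.03 CPM in the WT libraries. GDF3, a ligand of the TGF-beta family, ranked 3, with 1.90 CPM, against at most 0.174 CPM in the other KO and 0.119 to 1.38 CPM in the WT libraries. NFE2 had 2.96 CPM, against at most 0.290 CPM in the other KO and 0.296 to 2.11 CPM in the WT libraries. RHAG, an erythroid membrane protein, had 9.07 CPM, against at most 0.966 CPM in the other KO and 0.593 to 3.86 CPM in the WT libraries.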
